A study of Mus musculus with 8 samples.

Results

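Retinoic acid synthesis, binding, breakdown and reception were followed through 9 genes of 24015 in the count table: Aldh1a2, Dhrs3, Crabp1, Cyp26b1, Rara, Rarb, Rarg, Rxra and Rxrb. They were chosen by their known function, and all 9 passed the filter on low counts, as did 13908 genes in all. The samples were 8 libraries, each from 100 cells sorted from the E11.5 mouse AGM (aorta-gonad-mesonephros region) together with the vitelline and umbilical vessels. There were 2 libraries in each of 4 groups. Wild type clusters and Sl/Sl clusters were Ter119- VE-Cadherin+ Kit+ cells, a gate that takes the blood cell clusters of the large arteries, and wild type endothelium and Sl/Sl endothelium were Ter119- VE-Cadherin+ Kit- CD41- CD45- cells. Sl is a germline deletion that takes in Kitl, which encodes the ligand of Kit, and Sl/Sl embryos carry it on both chromosomes in all cells. Both genotypes were kept on a C57BL/6 background, and no treatment is stated. Cells came from pools of 1 to 4 embryos sorted in 2 experiments, and which library belonged to which experiment is not stated, so a sorting day cannot be told apart from the replicates.

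Counts summed to between 8933236 and 13428214 per library. The endothelial marker list (10 genes) summed to between 5786 and 6535 CPM (counts scaled to a common library total) in endothelium and between 422 and 2720 CPM in clusters. The hematopoietic list summed to between 95.4 and 102 CPM in endothelium and between 1044 and 1309 CPM in clusters, and Ptprc, which encodes CD45, had 6 to 16 counts in endothelium and 1294 to 3908 in clusters. Cdh5, the gene of the VE-Cadherin used in both gates, ran from 154 counts (wild type clusters replicate 2) to 2531 in clusters and from 4480 to 8240 in endothelium. Kitl, the gene deleted in Sl/Sl, had 1250 and 923 counts in the endothelium of wild type embryos and 6 and 2 in that of Sl/Sl embryos. Clusters of wild type embryos had 110 and 0 counts of it and those of Sl/Sl embryos 1 and 3, so that Kitl does not separate wild type clusters replicate 2 from the mutant.

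Retinoic acid is made from vitamin A (retinol) in steps of oxidation. ALDH1A2 carries out the last, irreversible step in the early embryo, DHRS3 returns retinaldehyde to retinol, CRABP1 binds retinoic acid in the cytoplasm and CYP26 enzymes break it down. In the nucleus it is bound by the receptors RARα, RARβ and RARγ, which pair with an RXR on direct repeats in DNA. Retinoid signalling is required for blood stem cell formation in the embryonic aorta, and Aldh1a2 is well known from the mesoderm and the coelomic lining around that vessel.

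Retinoic acid receptors bind pairs of a short core site with a spacer of fixed length. In the RefSeq promoter windows (GRCm38.p6, 250 bases before to 50 after each start), 2 genes of the pathway carry such a pair just before a start. The core site searched was AGGTCA or a variant of it, these being AGTTCA as well as GGGTCA and besides them GGTTCA, followed by the same or another of these after 5 bases (a direct repeat called DR5), on both strands. It was found in 32 of 32851 windows (0.0974%). All 9 genes matched a window, and of their 17 windows 1 held the repeat, a window of Rarb. Of 45 genes matched among the other pathway genes described later, Cyp26a1 held it. The 250 bases before each of these starts are shown, and the core sites stand in capitals. The Rarb site lies 53 to 37 bases before the start and reads with the gene, and the Cyp26a1 site lies 32 to 16 bases before the start and reads on the opposite strand. The same search with spacers of 1 and 2 bases (DR1 and DR2) matched 0.222% and 0.268% of windows and none of these genes. Repeats with other spacing were not searched.
Rarb, chr14:16575477-16575726, minus strand: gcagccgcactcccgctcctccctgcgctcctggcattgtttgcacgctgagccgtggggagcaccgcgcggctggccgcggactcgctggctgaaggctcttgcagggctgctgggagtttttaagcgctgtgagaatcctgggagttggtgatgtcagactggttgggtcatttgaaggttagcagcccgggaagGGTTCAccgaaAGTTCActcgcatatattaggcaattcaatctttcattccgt
Cyp26a1, chr19:37697558-37697807, plus strand: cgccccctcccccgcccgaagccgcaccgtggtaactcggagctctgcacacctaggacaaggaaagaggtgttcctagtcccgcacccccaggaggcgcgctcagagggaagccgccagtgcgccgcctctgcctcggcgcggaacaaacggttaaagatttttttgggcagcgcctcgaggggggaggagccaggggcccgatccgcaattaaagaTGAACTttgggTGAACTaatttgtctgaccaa

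Between the cell types, Cyp26b1 was the 1 gene of the 9 that passed the test, and it was higher in endothelium. The test was edgeR's quasi-likelihood test over all 8 libraries, with endothelium against clusters averaged over both genotypes and a Benjamini-Hochberg adjusted p under 0.1. In this comparison 16.6% of the 13908 genes tested were called (8.48% higher and 8.12% lower in endothelium). The median log2 fold change of the 9 genes was -0.44, against -0.067 for all genes tested. In wild type alone none of the 9 passed (8.24% of all genes did), and in Sl/Sl alone none passed (2.83% of all genes did). At an unadjusted p under 0.05, 0 of the 9 passed in either genotype alone, where 19.5% and 14.4% of all genes did. For 1 gene at 2 libraries against 2, the smallest p that an exact permutation allows is 0.333, and the cross-gene fit is the test used throughout. The study's methods call the libraries duplicates and biological replicates, without saying which embryos went into each, and the p-values measure the spread between these libraries. In bulk samples of sorted cells, fewer cells that express a gene and less RNA of it per cell cannot be told apart.

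**Figure D1:**
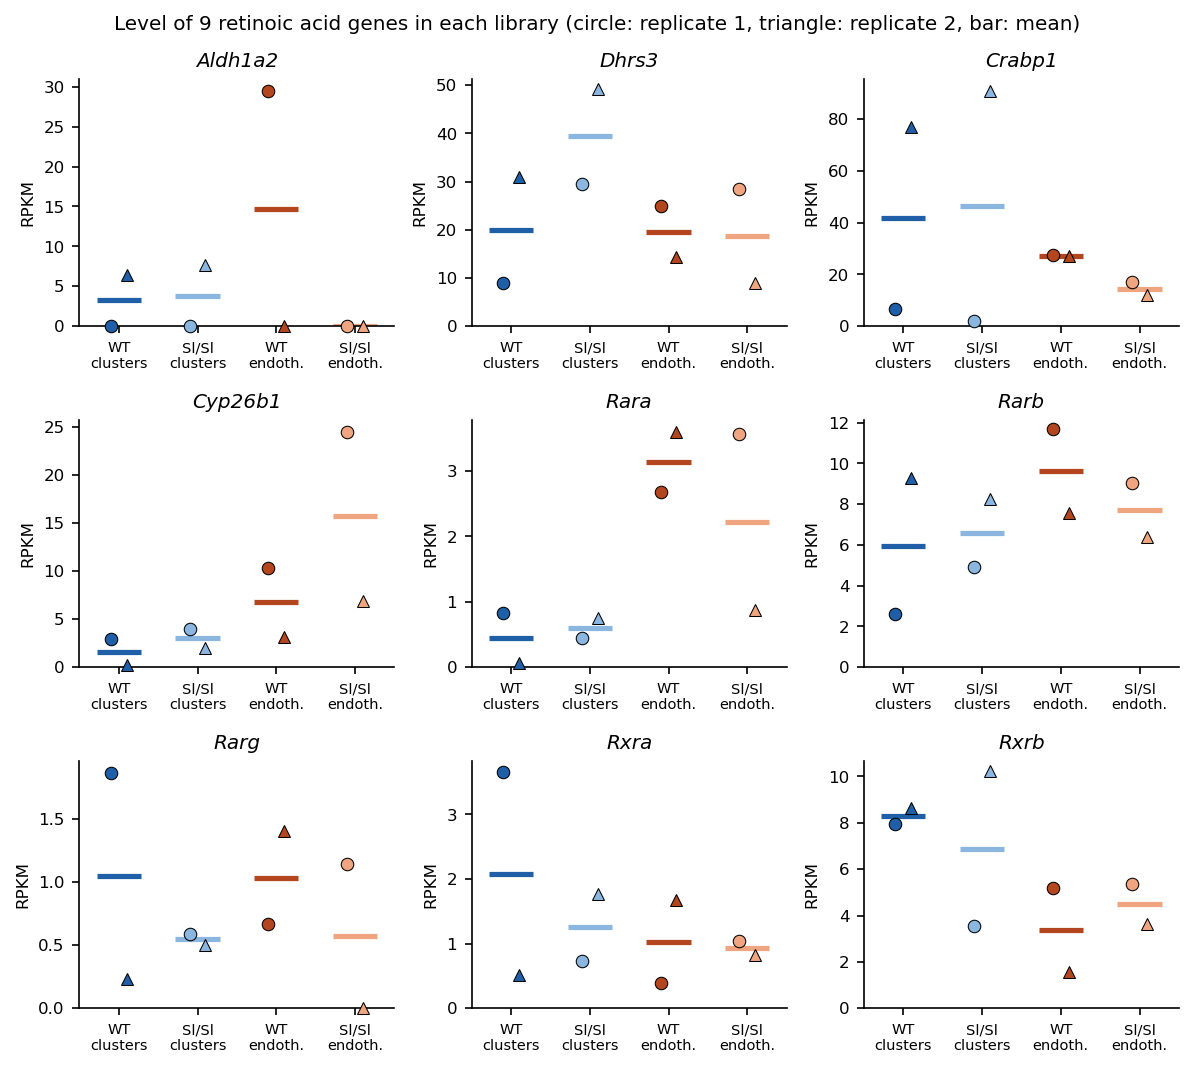
RPKM (vertical axes, counts scaled by exon length and library total) of the 9 genes in the 4 groups; circles are replicate 1, triangles replicate 2 and bars the means of 2. Rara and Cyp26b1 have their highest means in endothelium, and for Cyp26b1 wild type endothelium replicate 2 lies below Sl/Sl clusters replicate 1. Aldh1a2 is above 1 RPKM in 3 libraries, and the replicates of Crabp1 in clusters lie far apart.

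Aldh1a2, the enzyme of the final step of synthesis, lies at chr9:71063596-71144050 on the plus strand of mm9, with 14 exons. It was found in 3 libraries that belong to 3 groups. Its counts were 0 and 184 in wild type clusters, 1 and 232 in Sl/Sl clusters, 856 and 0 in the endothelium of wild type embryos and 2 and 0 in that of Sl/Sl embryos. A count of 0 allows up to 3 counts, so 5 libraries were at or under that floor. Both cluster groups and wild type endothelium thus had 1 library with the transcript and 1 without, and neither library of Sl/Sl endothelium had it. In wild type endothelium the level was 14.7 RPKM ± 20.8 (SD, n = 2), so the mean describes neither library. The test gave an adjusted p of 0.606 between the cell types and 1 between the genotypes in either cell type (edgeR), and no fold is given because it would depend on libraries at 0.

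The 3 libraries with Aldh1a2 also held transcripts of genes of the coelomic lining and its mesenchyme. Wt1, a transcription factor of the coelomic epithelium and kidney, had 22, 70 and 288 counts in wild type clusters replicate 2, Sl/Sl clusters replicate 2 and wild type endothelium replicate 1, and 0 or 1 in the other 5 libraries. Tcf21, a transcription factor of visceral mesenchyme, had 175, 159 and 147 counts in the same order and 0 or 1 elsewhere. Osr1, a factor of intermediate mesoderm, had 54, 85 and 106 counts and 0 or 1 elsewhere. These 3 of the 14 markers in the coelomic and mesonephric list followed the libraries of Aldh1a2, and they were named after their values were seen. The genes whose profile over the 8 libraries was nearest to that of Aldh1a2, by root mean square distance of centred log2 CPM, were Fgf10 (0.47) and Asgr1 (0.75). Fgf10, a growth factor of mesenchyme, had 164, 212 and 310 counts in those libraries and 0 to 2 in the others. Asgr1, a subunit of the asialoglycoprotein receptor, had 61, 94 and 196 counts and 0 in the others. All of these genes were picked by their values in these libraries, so their likeness to Aldh1a2 follows from the choice. Over the whole series 38 genes, Aldh1a2 included, were over 3 counts in these 3 libraries and at or under 3 in the other 5. The number of genes for other sets of 3 libraries was not counted, so the 38 cannot be set against it.

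The whole list of 14 markers of coelomic epithelium and mesonephros did not separate these libraries so clearly. Over 3 counts were 8, 9 and 5 of the 14 in the libraries with Aldh1a2 and 2 to 5 in the others. The summed level was 99.1, 215 and 168 CPM in the former and 2.19 to 138 CPM in the latter, which overlap. Of the defining markers Msln and Lhx1 were at 0 in all 8 libraries and Pax2 at 0 or 1. The mesenchymal list (10 genes) summed to 1109, 4881 and 1632 CPM in the libraries with Aldh1a2 and to 42.1 to 1205 CPM in those without. The part of other cell types in the Aldh1a2 counts was not tested.

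**Figure D2:**
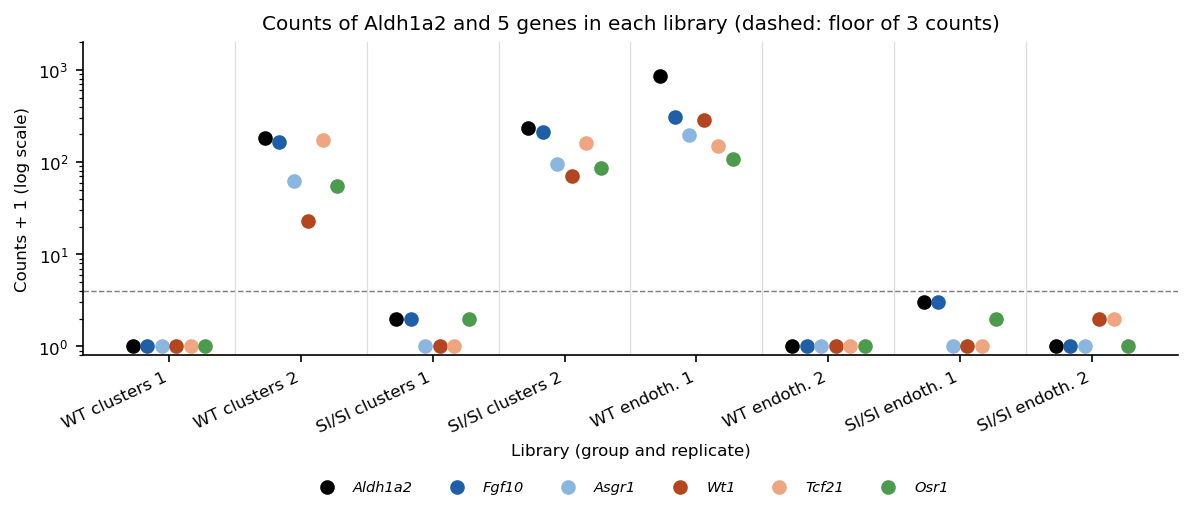
Counts plus 1 on a log axis for Aldh1a2, Fgf10, Asgr1, Wt1, Tcf21 and Osr1 in each of the 8 libraries; the dashed line marks the floor of 3 counts. The 6 genes are above the floor in wild type clusters replicate 2, Sl/Sl clusters replicate 2 and wild type endothelium replicate 1 and at or under it in the other 5 libraries. The genes beside Aldh1a2 were picked by their values in these libraries.

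Dhrs3, the retinaldehyde reductase, lies at chr4:144482730-144517548 (plus strand, 7 exons) and was found in all 8 libraries. Its counts were 174 and 701 in wild type clusters, 636 and 1188 in Sl/Sl clusters, 575 and 269 in the endothelium of wild type embryos and 609 and 143 in that of Sl/Sl embryos. The replicates of one group differed by up to 3.64 times in CPM (wild type clusters), and the cell types overlapped. Endothelium minus clusters was -0.44 on the log2 scale (SE 0.53, adjusted p 0.661 by edgeR). Dhrs3 stood at 24.4 RPKM ± 13.5 (SD, n = 8), the second highest of the 9 levels. The nearest profiles were those of Trim13 (distance 0.26) and Aplf (0.34).

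Crabp1, the cytoplasmic binding protein, lies at chr9:54612555-54620917 (plus strand, 4 exons). Its counts were 59 and 774 in wild type clusters, 21 and 980 in Sl/Sl clusters, 282 and 228 in the endothelium of wild type embryos and 163 and 86 in that of Sl/Sl embryos. The clusters held both the highest libraries, replicate 2 of either genotype, and the lowest, replicate 1 of either genotype, with all endothelial libraries in between. Within a group CPM differed by 11.8 times in wild type clusters and 39.7 times in Sl/Sl clusters, and by 1.027 and 1.393 times in wild type and Sl/Sl endothelium. The difference between cell types was -1.02 (SE 1.00, adjusted p 0.575), and leaving out replicate 2 of wild type or of Sl/Sl clusters turned its sign. The gene that encodes the related protein CRABP2 split the clusters in the same way, with 2 counts against 387 in wild type and 43 against 892 in Sl/Sl, and had 1323, 946, 479 and 410 counts in endothelium. The 2 cluster libraries high in Crabp1 are those that held Aldh1a2, while the endothelial library with Aldh1a2 was not set apart in Crabp1 (22.4 CPM, against 23.0 CPM in the other wild type endothelium). The neural and neural crest list (8 genes), of interest because Crabp1 is known from those cells, summed to 33.7 to 93.5 CPM in clusters and 432 to 913 CPM in endothelium, with Sox10 at 0 in all clusters. The mesenchymal sums in the 2 cluster libraries high in Crabp1 were 1109 and 4881 CPM, and 885 and 42.1 CPM in the 2 low ones; their part was not tested. A930013F10Rik (0.54) and Dzip1l (0.62) had the nearest profiles.

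Cyp26b1, which breaks retinoic acid down, lies at chr6:84521408-84543902 (minus strand, 7 exons). Its counts were 152 and 15 in wild type clusters, 233 and 130 in Sl/Sl clusters, 644 and 161 in the endothelium of wild type embryos and 1412 and 300 in that of Sl/Sl embryos. In each genotype both endothelial libraries were above both cluster libraries in CPM, as they were for Rara and no other of the 9 genes. Of all genes tested, 25.1% were so separated in wild type and 21.9% in Sl/Sl. Across genotypes they overlapped, because wild type endothelium replicate 2 (16.3 CPM) was below Sl/Sl clusters replicate 1 (19.1 CPM). The mean was 56.7 CPM in endothelium and 10.6 CPM in clusters, a ratio of 5.34. Sl/Sl endothelium replicate 1 was the highest library (124 CPM), and without it the ratio was 3.24. The fitted log2 fold change was 2.37 (SE 0.79, 95% interval 0.59 to 4.15, adjusted p 0.0921 by edgeR). The call is close to the threshold. It was lost, with adjusted p from 0.110 to 0.254, without wild type clusters replicate 2, either library of Sl/Sl clusters, wild type endothelium replicate 1 or Sl/Sl endothelium replicate 1, each left out in turn.

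Within each genotype the difference was of like size but did not pass, at 2.24 (SE 1.11, adjusted p 0.312) in wild type and 2.498 (SE 1.12, adjusted p 0.351) in Sl/Sl. Without the filter on low counts both passed, with adjusted p of 0.0371 and 0.0236, and in wild type it passed without wild type clusters replicate 1 (adjusted p 0.0567). The order of the 4 cluster libraries in Cyp26b1 CPM was also that of their summed endothelial markers. Sl/Sl clusters replicate 1 had 19.1 CPM of Cyp26b1 and a sum of 2720 CPM, wild type clusters replicate 1 had 13.1 and 1166, Sl/Sl clusters replicate 2 had 9.09 and 740, and wild type clusters replicate 2 had 1.17 and 422. In endothelium the 2 orders differed. Sl/Sl endothelium replicate 1 had 124 CPM of Cyp26b1 at a sum of 6250 CPM, and Sl/Sl endothelium replicate 2 had 35.8 at the highest sum, 6535. Wild type endothelium replicate 2 was lowest in both, with 16.3 and 5786. The part of endothelial content in this result was not tested. Ass1, an enzyme of arginine synthesis (0.27), and Gpr124, a receptor of brain endothelium (0.38), had the nearest profiles.

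Rara, the RARα gene, lies at chr11:98799010-98836256 (plus strand, 12 exons). It was the 1 gene of the 9 whose cell types did not overlap over all 8 libraries. Its counts were 37 and 3 in wild type clusters, 22 and 42 in Sl/Sl clusters, 142 and 156 in the endothelium of wild type embryos and 175 and 32 in that of Sl/Sl embryos. In CPM the endothelium ran from 3.81 to 15.8 and the clusters from 0.23 to 3.19. Of all genes tested, 10.1% were higher in endothelium without overlap and 9.57% lower. The mean ratio was 5.65, and the log2 fold change was 2.49 (SE 1.11, 95% interval -0.0093 to 4.99), which missed the threshold by edgeR (adjusted p 0.190) and passed by DESeq2 on the same libraries (adjusted p 0.0566). DESeq2 called 25.5% of genes and 2 of the 9, Rara and Cyp26b1, in this comparison. It called none of the 9 in wild type alone (19.8% of genes called), in Sl/Sl alone (12.7%) or for the interaction (1.3%). Like Cyp26b1, it was lowest in wild type clusters replicate 2. Slc12a7 (0.38), a potassium-chloride cotransporter gene, and Ctgf (0.46), a matricellular growth factor gene, had the nearest profiles.

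Rarb, the RARβ gene with the DR5 shown above in a promoter window, lies at chr14:17263354-17914845 of mm9 (minus strand, 11 exons). It was found in all 8 libraries. Its counts were 105 and 441 in wild type clusters, 222 and 419 in Sl/Sl clusters, 565 and 300 in the endothelium of wild type embryos and 405 and 216 in that of Sl/Sl embryos. The cell types overlapped, since 25.7 to 44.9 CPM in endothelium stood against 9.06 to 34.3 CPM in clusters. The log2 fold change was 0.58 (SE 0.52, 95% interval -0.59 to 1.75, adjusted p 0.535). Esyt1 (0.15) and Cir1 (0.24) had the nearest profiles, and the distance of Esyt1 was the smallest for any of the 9 genes.

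Rarg, the RARγ gene, lies at chr15:102065369-102087953 (minus strand, 11 exons) and was low, with 68 and 10 counts in wild type clusters, 24 and 23 in Sl/Sl clusters, 29 and 50 in the endothelium of wild type embryos and 46 and 0 in that of Sl/Sl embryos. The log2 fold change was 0.16 with an SE of 1.63 (adjusted p 0.983). A change of either sign of several fold was not detectable with this spread between the libraries. The library at 0 was Sl/Sl endothelium replicate 2. Smoc1 (0.43) and Slc25a26 (0.53) were nearest, with 5 and 2 counts in that library and 52 to 349 and 89 to 222 in the other 7.

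In the sum of the RAR genes per length, Rarb took the largest share in each library. It made up 49.0% to 97.0% of the summed RPKM of Rara, Rarb and Rarg in clusters (median 84.7%, n = 4) and 60.2% to 88.1% in endothelium (median 71.7%, n = 4). Rara made up 0.60% to 15.8% in clusters (median 7.72%) and 11.9% to 28.6% in endothelium (median 21.9%), so the ranges overlapped. Rarg reached its highest share, 35.2%, in wild type clusters replicate 1 and was at most 11.2% in endothelium. Intervals for such shares would cover counting error only, because the libraries carry no molecular identifiers.

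**Figure D3:**
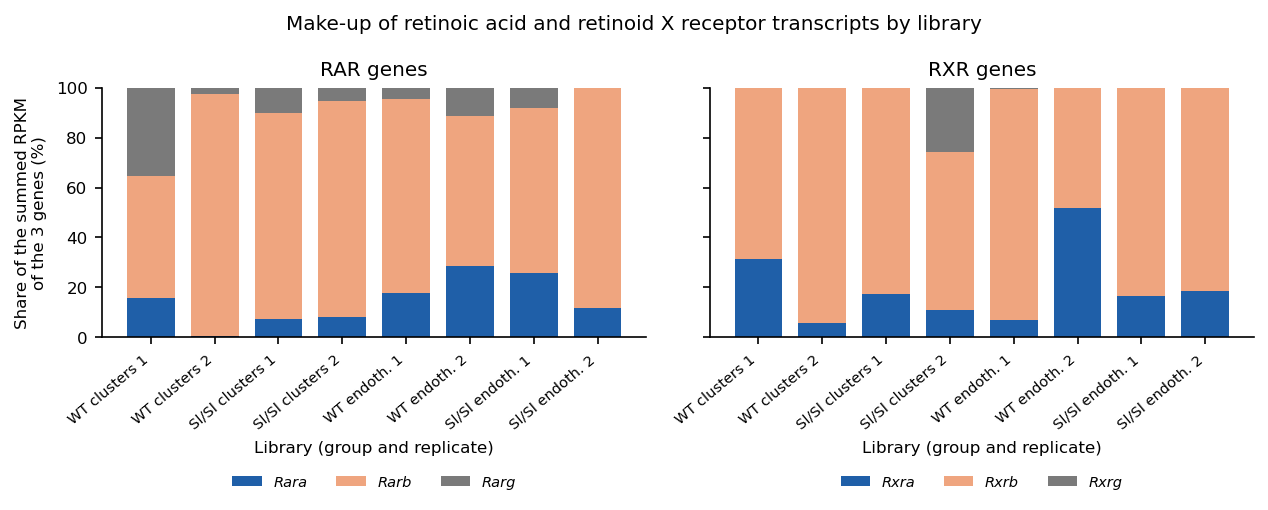
Share of the summed RPKM (vertical axis, %) of the 3 RAR genes (left) and the 3 RXR genes (right) in each library, 1 stacked bar a library. Rarb fills 49.0% or more of each left bar, and Rxrb fills 48.1% or more of each right bar. Rxra fills more than Rxrb in wild type endothelium replicate 2 alone, and Rxrg is above 1% in Sl/Sl clusters replicate 2 alone.

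The RXR genes encode the partners of the RARs and of other nuclear receptors. Rxra, at chr2:27532721-27618839 (plus strand, 12 exons), had 215 and 35 counts in wild type clusters, 48 and 130 in Sl/Sl clusters, 27 and 96 in the endothelium of wild type embryos and 68 and 40 in that of Sl/Sl embryos. Its highest library, wild type clusters replicate 1, was also the highest in Rarg. The log2 fold change between cell types was -0.56 (SE 1.00, adjusted p 0.780), and without that library the sign turned. Tmem231 (0.38) and Lrba (0.39) were nearest to Rxra.

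Rxrb, at chr17:34168757-34175348 (plus strand, 11 exons), had 236 and 300 counts in wild type clusters, 117 and 380 in Sl/Sl clusters, 184 and 45 in the endothelium of wild type embryos and 176 and 90 in that of Sl/Sl embryos. In wild type both cluster libraries (20.4 and 23.4 CPM) were above both endothelial libraries (14.6 and 4.55 CPM), and in Sl/Sl they overlapped. It was the 1 of the 9 genes so separated in wild type, where 25.6% of all genes were. The log2 fold change was -0.83 (SE 0.65, 95% interval -2.29 to 0.63, adjusted p 0.467). Gclc (0.22) and Ankhd1 (0.23) were nearest to Rxrb. Rxrb made up 63.4% to 94.4% of the RXR sum in clusters and 48.1% to 92.5% in endothelium. It took the largest share in each library except wild type endothelium replicate 2, where Rxra made up 51.9%. Rxrg, which did not pass the filter, had 131 counts in Sl/Sl clusters replicate 2 and 0 or 1 in the other libraries.

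**Figure D4:**
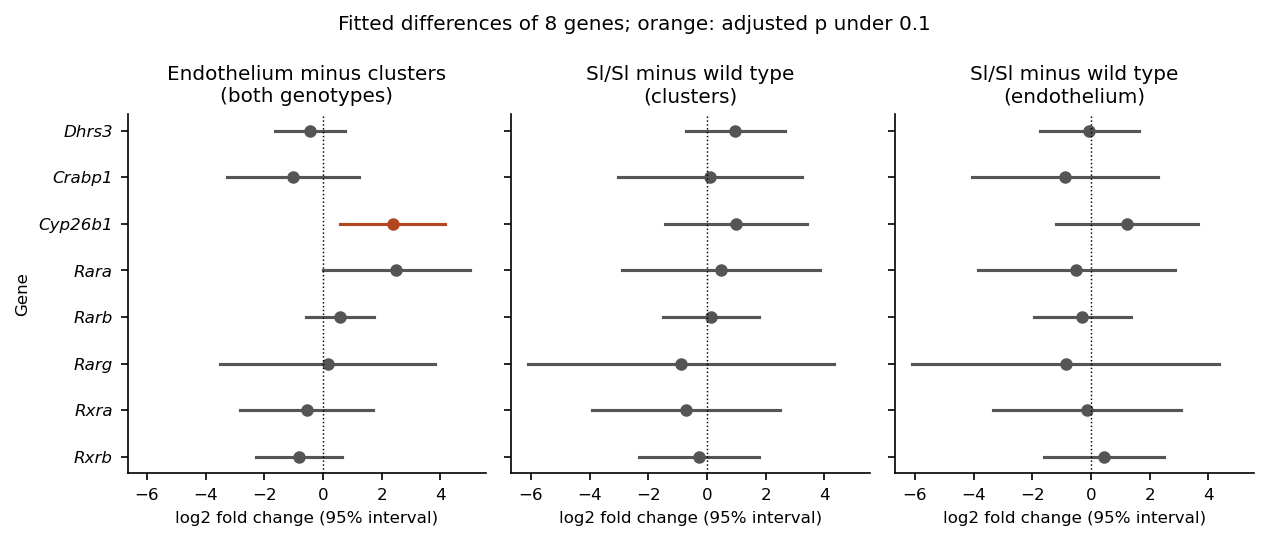
Fitted log2 fold changes (points) with 95% intervals (lines) of 8 genes for endothelium minus clusters and for Sl/Sl minus wild type in clusters and in endothelium; Aldh1a2 is left out because its fit rests on libraries at 0. Cyp26b1 between cell types, at 2.37, is the one drawn in orange for an adjusted p under 0.1, and the intervals in both genotype panels take in 0.

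The levels per length, averaged over the 8 libraries, ran from Crabp1 (32.6 RPKM ± 33.1, SD) through Dhrs3 (24.4 ± 13.5), Rarb (7.46 ± 2.82), Cyp26b1 (6.76 ± 7.81), Rxrb (5.75 ± 2.94), Aldh1a2 (5.46 ± 10.2), Rara (1.60 ± 1.44) and Rxra (1.32 ± 1.07) to Rarg (0.80 ± 0.62). Neighbours in this order were compared library by library with an exact two-sided sign-flip permutation test, 8 pairs in all. The pairs were set by the same means that were then compared, and the libraries span both cell types and genotypes. The p-values therefore only describe these libraries. Dhrs3 was above Rarb in 8 of 8 libraries, by 16.96 RPKM on average (exact p 0.00781, adjusted p 0.0625), which passes 0.1 and not 0.05 after adjustment. The other 7 pairs passed neither threshold (exact p from 0.0781 to 0.984, adjusted p from 0.312 to 0.984). Crabp1 was above Dhrs3 in 5 of 8 libraries. The place of Aldh1a2 rests on 3 libraries. The order of the means also differed between the cell types, which was not tested. In clusters Rxrb (7.58 RPKM ± 2.87, SD, n = 4) stood above Rarb (6.26 ± 3.09), and Cyp26b1 (2.29 ± 1.59) was sixth. In endothelium Cyp26b1 (11.2 ± 9.30) stood above Rarb (8.66 ± 2.27), and Rxrb (3.93 ± 1.76) was sixth. The single libraries did not all follow these means. Rxrb was above Rarb in wild type clusters replicate 1 and Sl/Sl clusters replicate 2, and below it in the other cluster libraries. Cyp26b1 was above Rarb in both libraries of Sl/Sl endothelium and below it in both of wild type endothelium. Crabp1 and Dhrs3 had the highest means in both cell types.

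The genotypes were compared in each cell type, since Kitl is the ligand for the receptor that defines the clusters. None of the 9 genes passed in either, and 0% of all genes did by edgeR. At an unadjusted p under 0.05, 587 genes (4.22%) passed in clusters and 580 (4.17%) in endothelium, none of them among the 9. DESeq2 called 175 genes (1.36%) in clusters and 178 (1.35%) in endothelium, and again none of the 9. In clusters, Sl/Sl minus wild type ran from -0.89 for Rarg (SE 2.32) to 0.98 for Cyp26b1 (SE 1.08) on the log2 scale, with an adjusted p of 1 for each gene. Dhrs3 was at 0.96 (SE 0.75), with 39.4 RPKM ± 13.9 in Sl/Sl and 20.0 ± 15.6 in wild type (SD, n = 2 each). Rarb had the smallest SE, at 0.13 (SE 0.73, 95% interval -1.52 to 1.78).

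In endothelium, Sl/Sl minus wild type ran from -0.89 for Crabp1 (SE 1.41) to 1.24 for Cyp26b1 (SE 1.07), apart from Aldh1a2, again with an adjusted p of 1. Crabp1 was at 27.2 RPKM ± 0.22 in wild type and 14.5 ± 3.59 in Sl/Sl endothelium, and its 4 libraries did not overlap there in RPKM or in CPM, but the fit uses the spread of all groups, in which Crabp1 varied widely. Among the 9 genes it was the 1 so separated, and among all genes 14.9% were lower and 13.5% higher in Sl/Sl endothelium without overlap. Cyp26b1 was at 15.7 RPKM ± 12.4 in Sl/Sl and 6.76 ± 5.08 in wild type, and these overlapped. The test of a genotype effect that differs between the cell types passed for none of the 9 (interaction adjusted p from 0.913 to 1.00). In that test 736 of all genes (5.29%) passed at an unadjusted p under 0.05, none of the 9 among them, and 0% passed after adjustment. The intervals show how little these libraries bound a genotype effect. That of Rarb in endothelium, the narrowest there, ran from -1.94 to 1.35.

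Around these 9 genes stands a list of 66 others of retinoid uptake, synthesis, binding, breakdown, reception and response, of which 65 were in the table under the symbol used and 51 passed the filter. Between the cell types 5 of the 51 passed (4 higher and 1 lower in endothelium), against 16.6% of all genes, and their median was 0.078 on the log2 scale. By role, those described here were 0 of 6 tested in synthesis, 0 of 3 in binding, 1 of 2 in breakdown, 0 of 8 RXR partners, 1 of 5 orphan receptors that compete for the same repeats, 0 of 6 coactivators, 0 of 7 corepressors and 2 of 12 targets. In wild type alone 3 were higher in endothelium (Cyp26a1, Hoxa4 and Nr2f2, against 4.56% of all genes) and 1 lower (Meis1, against 3.68%). In Sl/Sl alone none was higher (0.985% of all genes) and 1 was lower (Meis1, against 1.84%). None passed between the genotypes or for the interaction. At 0 in all libraries were 6 genes, among them Aldh1a1, a sister gene of Aldh1a2. Aldh1a3 had 92 counts in Sl/Sl clusters replicate 2 and 0 in the others, so none of the 3 genes was above the floor in 5 of the 8 libraries.

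Cyp26a1, the breakdown enzyme whose promoter carries the DR5 shown above, had 0 and 0 counts in wild type clusters, 56 and 33 in Sl/Sl clusters, 445 and 142 in the endothelium of wild type embryos and 103 and 58 in that of Sl/Sl embryos. All 4 endothelial libraries were above all 4 cluster libraries in CPM (6.91 to 35.4 against 0 to 4.60), with an adjusted p of 0.0116. In wild type the endothelial mean was 101 times a floor of 3 counts per library set for the clusters (adjusted p 0.0185 by edgeR). Without wild type endothelium replicate 1 it was 58.3 times that floor. The floor allows for counting and not for the spread between libraries, so these ratios are not lower bounds on the fold. In Sl/Sl the mean ratio was 2.31. In Rarb the cell types overlapped. Counts are per gene and do not tell its starts apart, and the part of the repeat in either pattern was not tested. Cyp26c1 was over 3 counts in 2 endothelial libraries (23 and 28 counts) and at 0 in the other 6.

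Hoxa4, a homeobox gene that responds to retinoic acid, had 0 and 0 counts in wild type clusters, 3 and 35 in Sl/Sl clusters, 192 and 64 in the endothelium of wild type embryos and 65 and 97 in that of Sl/Sl embryos. The adjusted p was 0.0356 by edgeR. In wild type the endothelial mean was 44.1 times the same floor (adjusted p 0.0704 by edgeR), or 26.3 times without replicate 1 of that group. These ratios are not lower bounds either. Nr2f2, the venous and mesenchymal orphan receptor COUP-TFII, had 258 and 500 counts in wild type clusters, 628 and 3102 in Sl/Sl clusters, 3488 and 2925 in the endothelium of wild type embryos and 1579 and 1261 in that of Sl/Sl embryos. It was higher in endothelium by 1.66 on the log2 scale (SE 0.41, adjusted p 0.0327), and in wild type by 3.23 (adjusted p 0.0212). In Sl/Sl the difference was 0.10 (SE 0.56, adjusted p 0.968), with means of 144 CPM in endothelium and 134 CPM in clusters that overlapped, so the pooled call rests on wild type. Sl/Sl clusters replicate 2, the cluster library with most Nr2f2, also had the highest mesenchymal sum (4881 CPM), and the part of those cells was not tested.

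Meis1, a homeobox partner of HOX proteins expressed in blood stem cells, went the other way. It had 1990 and 2643 counts in wild type clusters, 1359 and 1604 in Sl/Sl clusters, 341 and 265 in the endothelium of wild type embryos and 193 and 373 in that of Sl/Sl embryos, and the cell types did not overlap. It was lower in endothelium by 2.34 (SE 0.33, adjusted p 0.00285), and passed within wild type (adjusted p 0.0133) and within Sl/Sl (adjusted p 0.0962). Adh5 and Fabp5, among the 3 highest genes of the list per length (147 and 125 RPKM over 8 libraries), did not pass between the cell types, with adjusted p of 0.461 and 0.267. ADH5 oxidises alcohols and FABP5 carries retinoic acid and fatty acids.

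**Figure D5:**
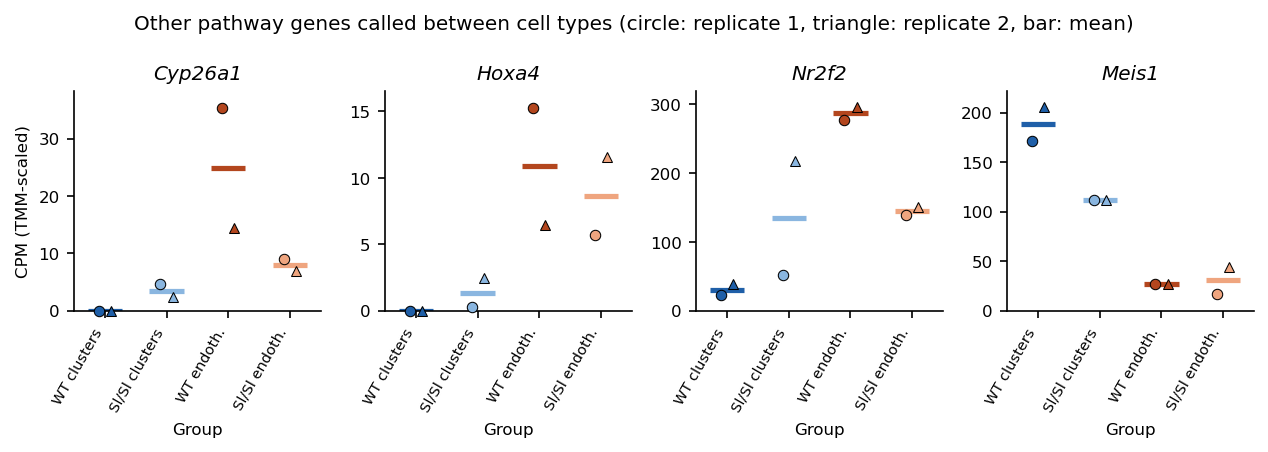
TMM-scaled CPM (vertical axes) of 4 of the 5 other pathway genes called between endothelium and clusters, in each library of the 4 groups; circles are replicate 1, triangles replicate 2 and bars the means. Cyp26a1 and Hoxa4 lie higher and Meis1 lower in endothelium without overlap, and Nr2f2 overlaps through Sl/Sl clusters replicate 2.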

How the data were processed

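The table deposited by the authors holds raw counts of reads on genes in each library. Per the labels and the study's methods, the authors made SMARTSEQ2 libraries, sequenced 75 bp read pairs, aligned them to mm9 with STAR 2.4.2a and counted reads with featureCounts (Subread 1.4.5). The annotation and the strand setting are not given in the sources used here. No exon of the 9 genes overlapped an exon of another gene in the table.

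Genes were kept with filterByExpr, scaled with TMM and tested with edgeR 4.0.16 (glmQLFit, glmQLFTest) in R 4.3.3 on all 8 libraries, in 6 comparisons, with Benjamini-Hochberg adjustment over 13908 genes and a threshold of 0.1. CPM used TMM-scaled totals, RPKM plain totals, and profiles log2 CPM with a prior count of 2. The members, lists and comparisons were chosen with earlier results of these data known. Named genes were the 9, the pathway genes that passed in any comparison or were among the 3 highest per length, the 2 nearest profiles of each of the 9, and Cdh5, Ptprc, Kit and Kitl as checks, except items not reported here; Wt1, Tcf21, Osr1, Crabp2, Cyp26c1, Rxrg, Aldh1a1 and Aldh1a3 were added after their values were seen. Kit had 2937 to 4392 counts in clusters and 538 to 1065 in endothelium. Alternatives were DESeq2 1.42.0, RLE size factors, no filter, a threshold of 0.05, a replicate block, 4 libraries, and leaving out each library. Counts of 13908 genes were simulated in 5 runs, with a log2 fold change of 2 in 200 genes per run. Of the changed genes, 42.1% were recovered between the cell types and 18.5% between genotypes in clusters. Of the calls, 15.6% and 17.8% were unchanged genes, above the nominal rate. In the data 2310 genes were called between the cell types, and recovery with more changed genes was not simulated.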

Additional observations from a re-analysis of the deposited data

Results flagged for a closer look

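Each of the 9 genes and of the 5 other called pathway genes was looked at in the 4 libraries of each cell type, 28 sets in all, for a library whose gap to the nearest of the others was past Dixon's 95% critical value as a share of the whole range. For normally distributed values, chance alone marks about 1 set in 20. The CPM here hold values at or near 0 beside much higher ones, and that rate need not hold for them. In endothelium, Aldh1a2 stood at 68.1 CPM in wild type replicate 1, against 0 to 0.18 CPM in the other 3 libraries. In clusters, Nr2f2 stood at 217 CPM in Sl/Sl replicate 2, against 22.3 to 51.6 CPM in the others, and Hoxa4 stood at 2.45 CPM in the same library, against 0 to 0.25 CPM.

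Both libraries of Sl/Sl clusters were above, and both of Sl/Sl endothelium below, the wild type libraries of the same cell type in 2 genes. Of all genes tested, 16.4% were higher in Sl/Sl clusters and 14.9% lower in Sl/Sl endothelium without overlap. The share of all genes with both was not counted, so the 2 genes cannot be set against it. Cyp26a1 had means of 3.45 CPM in Sl/Sl and 0 CPM in wild type clusters, and of 7.97 CPM in Sl/Sl and 24.9 CPM in wild type endothelium. Nr2f2 had 134 CPM in Sl/Sl and 30.6 CPM in wild type clusters, and 144 CPM in Sl/Sl and 286 CPM in wild type endothelium. The edgeR interaction did not pass for either (adjusted p 0.902 for each, unadjusted p 0.00157 and 0.00382, n = 2 libraries a group).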

How the results depend on the processing

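Between the cell types (both genotypes, wild type, Sl/Sl), a threshold of 0.05 gave 1488, 657 and 222 genes in place of 2310, 1146 and 393, with 0 of the 9 called over both genotypes and 0 pathway genes in Sl/Sl. DESeq2 gave 3614, 2613 and 1631, with 2 of the 9 (Rara at 2.47 beside Cyp26b1) and 9 pathway genes in wild type; between genotypes it gave 175 in clusters (2 of the pathway), 178 in endothelium and 175 for the interaction (3 of the pathway). No filter gave 1990 genes in wild type (1 of the 9, 8 of the pathway), 1266 in Sl/Sl (2 of the 9), 253 between genotypes in clusters (2 of the pathway), 65 in endothelium (1 of the 9) and 179 for the interaction (1 of the 9, 2 of the pathway); the genes of the 9 were Cyp26b1 between cell types and Aldh1a2 in Sl/Sl, between genotypes in endothelium and for the interaction. With 4 libraries, 211 genes passed in Sl/Sl (0 of the pathway) and 2 between genotypes in endothelium. RLE size factors moved the median of all genes by at most 0.028 on the log2 scale. TMM totals gave Crabp1 28.3 RPKM in wild type endothelium.

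Deviations of same-numbered libraries from their group means had r from -0.11 to 0.16 across genes over 6 group pairs. The highest r, 0.16, was between wild type and Sl/Sl clusters. These values cannot decide whether the numbers pair libraries of one sorting experiment, because a shared effect on some genes can leave r small. The replicate block called 8 genes between genotypes in clusters and Cyp26b1 in wild type (1 of the 9), and turned Crabp1 to 0.15 between cell types and -0.093 between genotypes in clusters.

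Leaving out each library gave 592 to 1329 genes in wild type (0 to 1 of the 9), 182 to 633 in Sl/Sl (0 to 1 of the pathway), 0 to 1 of the 9 over both genotypes, 6 to 76 genes between genotypes in clusters (0 to 1 of the pathway), 0 to 1 in endothelium and 0 to 27 for the interaction. Log2 fold changes between cell types whose sign turned ran from -3.65 to 1.20 (Rarg), -1.29 to 0.42 (Rxra), -0.99 to 0.14 (Dhrs3) and -1.50 to 1.15 (Crabp1). Between genotypes in clusters they ran from -0.43 to 3.29 (Rara), -0.53 to 1.38 (Rarb), -1.71 to 1.19 (Rarg), -1.18 to 0.28 (Rxrb), -1.51 to 1.26 (Rxra) and -4.23 to 2.78 (Crabp1), and in endothelium from -1.82 to 0.17 (Rara), -0.54 to 0.015 (Rarb), -8.41 to 0.12 (Rarg), -0.15 to 1.52 (Rxrb), -0.85 to 1.33 (Rxra) and -1.09 to 0.54 (Dhrs3). A lone library was taken to vary like the other groups. The cause was not tested. Fold changes not given above (interactions, and most within 1 genotype) were not followed through the alternatives. Of 330 recomputed log2 fold changes, 296 kept direction and side of the threshold.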
